A study of Drosophila melanogaster with 12 samples.

Results

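The genes described here are 40 cell division genes of Drosophila melanogaster, chosen by name from the 10392 genes of a merged single-cell table of larval hemocytes. They comprise 6 regulators of mitotic entry (*CycA*, *CycB*, *CycB3*, *Cdk1*, *stg* and *polo*), 2 regulators of the G1/S step, 9 genes of DNA replication and nucleotide supply, 8 spindle motors and microtubule proteins, 4 cytokinesis genes, 4 genes of the spindle checkpoint and of the anaphase-promoting complex (APC/C), 2 chromosomal passenger genes, 2 genes around separase, and 3 condensin genes. The 29 members other than the G1/S and replication genes are called the mitosis genes below.

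In the cell cycle, *CycE* with its kinase starts replication, which *dup* and the Mcm helicase license at origins and which *PCNA*, a sliding clamp, sustains. *Cdk1* with *CycA*, *CycB* and *CycB3* then drives mitosis once the phosphatase *stg* (Cdc25) has activated it, and *fzy* and *fzr* (Cdc20 and Cdh1) direct the APC/C to destroy cyclins and the securin *pim*. In the larva, plasmatocytes, the macrophage-like hemocytes, multiply by division in circulation and in sessile patches, whereas lamellocytes, the flat cells that encapsulate wasp eggs, are regarded as postmitotic.

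Wounded and unwounded hemocytes came from *Hml>EGFP* larvae (Hml-GAL4Δ, UAS-2xEGFP), in which the driver is active in plasmatocytes. Wounding was a prick with a clean tungsten needle, given 96 hr after egg laying (AEL). Hemocytes of both groups were taken 24 hr later, purified on Optiprep and encapsulated (4 libraries each, of which replicates 1 and 2 are 10X and replicates 3 and 4 inDrops). For the wasp inf. 48 hr and 24 hr groups, wild type OreR larvae were exposed to the wasp Leptopilina boulardi at 72 hr AEL and their hemocytes were made into Drop-seq libraries without Optiprep (3 each). The labels give the larvae as 128 hr AEL in the 48 hr group and 96 hr AEL in the 24 hr group, whereas 48 hr after infestation at 72 hr would be 120 hr AEL. Larval age and time after infestation therefore moved together and cannot be told apart. Each library pooled many larvae, so that no value belongs to a single animal, and the libraries of a group are the replicates of every test, whose p-values measure the spread between libraries.

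The merged table holds the unwounded, wounded and wasp inf. 24 hr libraries with the clusters deposited by the authors (PM1 to PM12 plasmatocytes, CC1 and CC2 crystal cells, LM1 and LM2 lamellocytes, non-hemo). Its unwounded and wounded libraries hold 623998 to 9873165 unique molecular identifiers (UMIs), with a median of 1141 to 4311 UMIs per cell. A pair of libraries stood apart. Unwounded replicate 4 had 492 cells, of which 2 were PM2, and wasp inf. 24 hr replicate 1 had 204 cells in its own table, of which 18 of the 130 without *atilla* were non-hemo cells. Cell barcodes shared between libraries numbered 9 in 10X, 144 in inDrops and 3 in Drop-seq, out of 6076, 7212 and 13303 cells. Plasmatocyte markers (Hml, NimC1, eater and Pxn) summed to 6525 to 15003 counts per 1e6 UMIs (CPM) over all cells in wounded and unwounded libraries, and to 846 to 1708 CPM at wasp inf. 24 hr, which is another technology. In the 26 non-hemo cells of wasp inf. 24 hr replicate 1, plasmatocyte and pan-hemocyte markers were at 3.62 and 10.9 CPM.

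All levels below are CPM of a summed population, so that fewer cells of a type and less RNA per cell cannot be told apart. Levels of members were compared within a technology and never between genes. Separation of wounded from unwounded libraries was the exception and was judged over both technologies together unless stated. Exons of 12 of the 40 genes (*CycE*, *Mcm7*, *dup*, *cmet*, *ncd*, *Klp61F*, *Klp67A*, *tacc*, *mars*, *fzy*, *thr* and *glu*) lie under exons of a gene on the opposite strand, and the sources used here do not state whether counting used the strand. The symbol *fzr* carried 0 UMIs in the wasp libraries of the merged table, where the Drop-seq tables list the same gene as rap with 1377 UMIs at 24 hr and 11254 UMIs at 48 hr. Its values in clusters therefore come from the 8 other libraries.

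Cell division genes were carried by every plasmatocyte cluster. In most libraries the mitosis genes, as a sum, were highest in PM2, a cluster that the study named as cycling from members such as *CycB*, *stg* and *polo*. The summed mitosis genes reached 2514 to 3693 CPM in PM2 in the 4 10X libraries, against 1350.0 to 1890.0 CPM in the other plasmatocyte clusters of those libraries. In inDrops they were at 3090.0 to 3222 CPM in PM2 and 1416 to 2045 CPM in the other plasmatocytes. In Drop-seq at wasp inf. 24 hr they were at 1487 to 1946 CPM in PM2 and 798 to 1369 CPM in the other plasmatocytes. PM2 was above the other plasmatocytes in each of the 10 libraries with at least 10 PM2 cells, with a median ratio of 1.89 for mitosis genes and 1.41 for replication genes. Since the clusters were found from the expression of these same cells, PM2 against the rest is a description and no test was made.

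**Figure D1:**
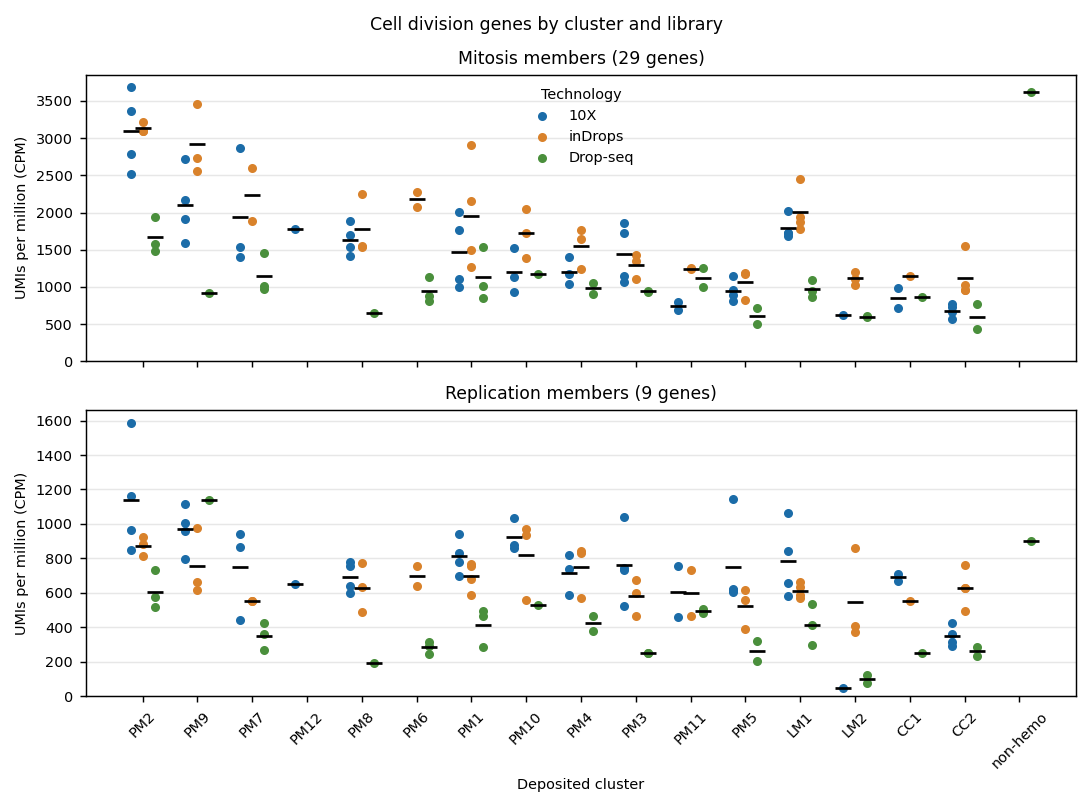
Summed CPM of the 29 mitosis genes (top) and the 9 replication genes (bottom) in each deposited cluster. Each point is a library with at least 10 cells of the cluster, coloured by technology, and black dashes are means within a technology. PM2 holds the highest mitosis values in 10X at 2514 to 3693 CPM and PM9 lies near it in inDrops.

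The rank of PM2 was not the same for all genes or libraries. For the mitosis genes PM2 was the highest cluster in 8 of 10 libraries. In wounded replicate 4 PM2 cells were at 3222 CPM, against 3454 CPM in PM9. In wasp inf. 24 hr replicate 1 PM2 cells were at 1582 CPM, against 3627 CPM in the non-hemo cells. For the replication genes, PM9 or PM10 was the highest cluster in 4 libraries and the non-hemo cells in wasp inf. 24 hr replicate 1.

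The other lineages carried fewer UMIs of the mitosis genes than PM2. LM1, the larger lamellocyte cluster, had 1679 to 2025 CPM in 10X and 868 to 1093 CPM in Drop-seq. Both ranges overlap those given above for the plasmatocytes other than PM2. The CPM of LM1 in inDrops are not given here, so LM2 is not set against LM1 in that technology. LM2, the smaller one, had 13.3 CPM of the 6 mitotic entry regulators in its 1 10X library and 23.6 to 24.8 CPM in Drop-seq, against 491 to 619 and 182 to 232 CPM in LM1. In inDrops LM2 had 279 to 485 CPM of these regulators, a level at which it did not stand apart from CC2 with 397 to 553 CPM. CC2 crystal cells had 125 to 231 CPM in 10X.

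The share of cells with several mitotic UMIs was higher in PM2 than in CC2. Other plasmatocyte clusters reached the share of PM2 in some libraries, PM9 in each technology, PM10 in inDrops, and PM7 and PM1 in 10X. After thinning each cell to 1000 UMIs, 17.8 to 29.4% of PM2 cells in 10X, 32.1 to 36.9% in inDrops and 10.5 to 15.5% in Drop-seq had at least 2 UMIs of the 6 mitotic entry regulators (unthinned, 44.4 to 79.7%, 76.3 to 84.7% and 61.6 to 68.4%). In CC2, crystal cells that served as the background type, the thinned share was 0 to 4.00% in 10X, 8.47 to 12.5% in inDrops and 2.13 to 2.61% in Drop-seq (unthinned, 17.6 to 40%, 13.6 to 43.5% and 12.8 to 18.3%). Median depths were 4472, 3338 and 6071 UMIs in PM2, against 6940, 2556 and 4229 UMIs in CC2. In PM9 the thinned share was 0 to 21.7% in 10X, 26.1 to 36.1% in inDrops and 25% in 1 Drop-seq library. In PM10 it was 0 to 14.3% in 10X, 15.4 to 38.5% in inDrops and 6.67% in 1 Drop-seq library, and in the non-hemo cells of wasp inf. 24 hr replicate 1 it was 26.9%. In LM2 it was 10.0 to 17.4% in inDrops, 0 of 30 cells in 10X, which allows a share of up to 10.0%, 0 of 12 cells in wasp inf. 24 hr replicate 2, which allows up to 25%, and 0 of 101 cells in wasp inf. 24 hr replicate 3, which allows up to 2.97%. These limits cover counting error.

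Among plasmatocytes, the excess in PM2 was uneven between members. Of the 40 genes, 28 had a median PM2 ratio above 1.5, against 3.47% of the 6536 genes with at least as many UMIs as the rarest member, whose median ratio was 1.04. The ratio was above 2 for 10 members and below 1.2 for 5, and 17 members were higher in PM2 in every library in which they had a UMI. The study named PM2 from genes of this kind and its clusters came from the same cells, so these counts are a description.

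As a group, cytokinesis genes had the highest median ratio, 2.41. The kinesin *pav* (chromosome arm 3L, 4242734 to 4246233, plus strand in the BDGP6 assembly), which forms the centralspindlin complex with *tum*, had 86.5 to 188 CPM in PM2 and 22.9 to 55.9 CPM in the other plasmatocytes in 10X, with a median ratio of 2.80 over 10 libraries. The ratio was 2.60 for *tum*, 2.33 for *scra* (anillin) and 1.81 for *feo*, which bundles the central spindle. Of these 4 genes, *pav* and *feo* were higher in PM2 in 10 of 10 libraries, and *tum* and *scra* in 9.

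Spindle motors were divided. The CENP-E-like kinesin *cmet* had a median ratio of 2.75, the spindle pole protein *asp* 2.72, the bipolar kinesin *Klp61F* 2.32, the minus-end motor *ncd* 2.27 and the spindle kinesin *Klp67A* 2.06, while *mars* had 1.64 and *Klp10A* 1.59. In contrast the centrosomal microtubule protein *tacc* was at 72.3 to 125 CPM in PM2 and 68.8 to 84.7 CPM in the other plasmatocytes of 10X, with a ratio of 1.11, and was higher in PM2 in 6 of 10 libraries.

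Regulators of mitotic entry were also uneven. *CycB* had 203 to 319.6 CPM in PM2 against 85.4 to 119 CPM in the other plasmatocytes of inDrops, and *polo*, *CycB*, *Cdk1*, *CycA* and *stg* were higher in PM2 in 10 of 10 libraries, with ratios of 1.99, 2.21, 1.65, 1.30 and 1.78. *CycB3*, which had 183 UMIs in PM2 in all, was higher there in 6 of 10 libraries, with a ratio of 1.14. The ratio was 1.49 for *CycE* and 1.46 for *dap*, a Cdk inhibitor.

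Replication genes had lower ratios. *Mcm2*, *Mcm5*, *Mcm6* and *Mcm7* had ratios of 1.89, 1.78, 1.71 and 1.67, *PCNA* 1.51, *dup* 1.49 and its inhibitor *geminin* 1.5. The 2 subunits of ribonucleotide reductase were nearest to 1, with 1.08 for *RnrS* (higher in 5 of 10 libraries) and 1.14 for *RnrL* (7 of 10). Of the checkpoint genes, *fzy* had 1.89, *BubR1* 1.49 *Bub1* 1.02, the lowest ratio of all 40, and *fzr* 1.34 over 7 libraries. Condensins *barr*, *SMC2* and *glu* had 1.49, 1.77 and 1.71, passenger genes *Incenp* and *borr* 1.87 and 1.63, *pim* 1.90 and *thr* 2.22.

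**Figure D2:**
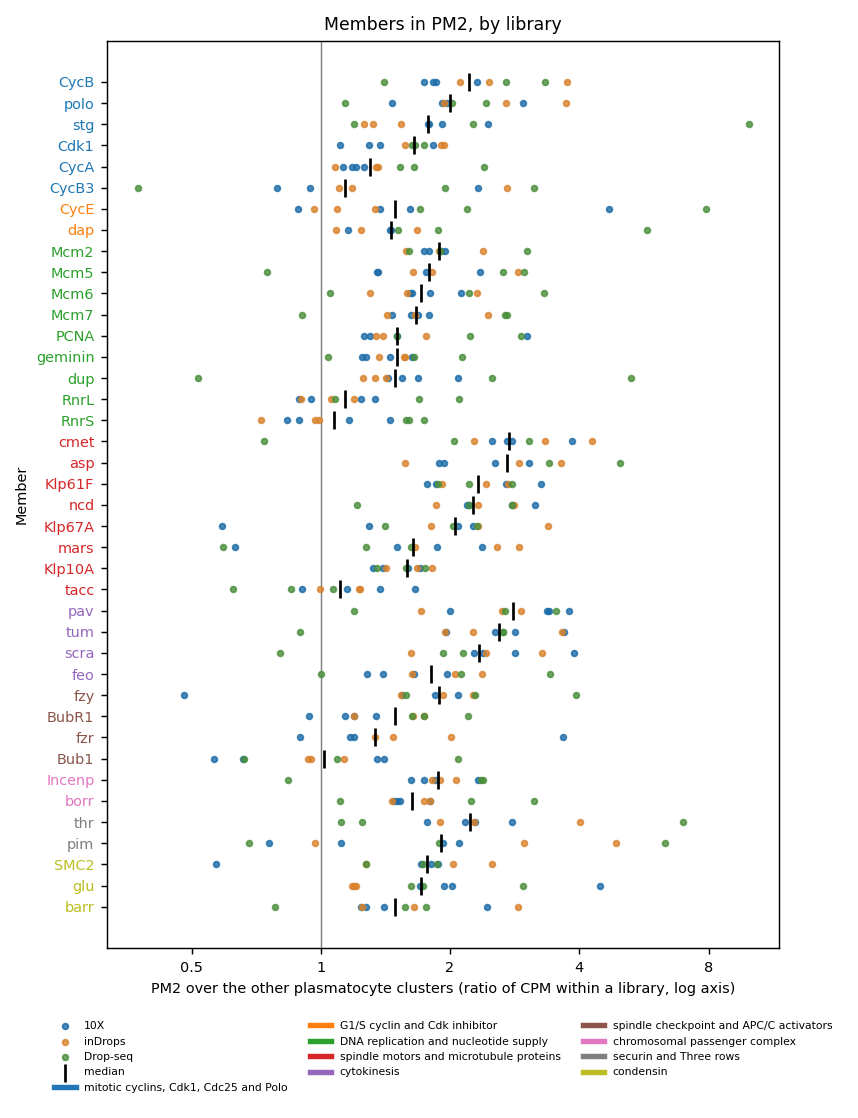
Ratio of CPM in PM2 to CPM in the other plasmatocyte clusters of the same library, for each member, on a log axis. Points are libraries coloured by technology, black ticks are medians, gene names are coloured by role, and 3 points at 0 (*CycB3*, *dap* and *asp*, each in 1 library) cannot be drawn. *fzr* has no points from wasp libraries. *pav*, *cmet*, *asp* and *tum* have the highest medians, and *Bub1*, *RnrS*, *tacc*, *RnrL* and *CycB3* the lowest.

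Libraries differed widely in their number of PM2 cells. PM2 held 6.06, 25, 13 and 12.4% of cells in wounded replicates 1 to 4, against 2.34, 27.9, 17.6 and 0.407% in unwounded replicates 1 to 4. It held 16.2, 42.0, 26.1 and 22.6% of the mitosis UMIs in those wounded libraries and 7.63, 43.3, 38.6 and 0.531% in the unwounded ones. Of all UMIs PM2 held 8.79, 26.3, 15.3 and 15.2% in the wounded libraries and 3.65, 29.9, 22.8 and 0.487% in the unwounded ones. In each of the 8 libraries the share of mitosis UMIs exceeded the share of cells and the share of all UMIs. In unwounded replicate 4 it rested on 9 mitosis UMIs in 2 cells. More than 50% of the mitosis UMIs lay outside PM2 in each library.

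Wounding left the members of a whole library without a detectable change. Wounded hemocytes had 2698, 2469, 2486 and 2975 CPM of all 40 genes in replicates 1 to 4, against 2794, 2545, 2557 and 3516 CPM in unwounded hemocytes, and the groups overlapped in both technologies. In each of replicates 1 to 4 the wounded library was the lower one, and this sum was not tested. In the edgeR quasi-likelihood test with technology as a covariate, 0 of 40 members had an adjusted p (Benjamini-Hochberg) under 0.05, where 0.351% of the 7415 genes tested did. None of the 40 had an unadjusted p under 0.05, and DESeq2 called 0. The median log2 fold change over members was -0.09, against -0.00 over all genes. Within 10X alone it was 0.02 and within inDrops alone -0.18, with 0 members called in either, and 0 were called without unwounded replicate 4.

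The most abundant members show how close the groups lay. *stg* had 288, 233, 387 and 546 CPM in wounded libraries, against 286, 257, 452 and 508 CPM in unwounded libraries (-0.09 ± 0.20 on the log2 scale, SE). *PCNA* had 119, 110.1, 139 and 188 CPM after wounding and 104, 128, 165 and 219.6 CPM without it (-0.17 ± 0.20). Both overlapped between groups. For *scra*, *geminin*, *RnrS*, *polo*, *CycB* and *tacc* the log2 fold changes were -0.28, -0.10, -0.04, -0.01, -0.12 and -0.04, and the smallest SE of the 40 members was 0.17. Over both technologies together, the kinesin *ncd* was the 1 member whose wounded and unwounded libraries did not overlap. It was at 70.7, 68.0, 57.7 and 54.1 CPM against 73.1, 75.8, 71.7 and 101 CPM (-0.39 ± 0.20, not called), where 0.283% of genes were lower and 1.35% higher without overlap. Within a technology, where each group has 2 libraries, 6 of 40 members did not overlap in 10X and 10 in inDrops. The share of all genes within a technology is not given here.

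The members' fold changes ranged from -0.49 (*feo*) to +0.38 (*Cdk1*). Markers of lamellocytes did not overlap between the groups, at 555 to 1744 CPM in wounded libraries against 72.3 to 284 CPM in unwounded libraries. Those of crystal cells did, at 973 to 18287 CPM against 536 to 22163 CPM. Their part in the result was not tested.

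Restricting the cells to plasmatocytes gave the same picture. In PM1 to PM12 together 0 of 40 members were called (0.182% of 7160 genes were), and the median was -0.09, against -0.00 for all genes. Over both technologies together no member was separated between the groups (0.196% of genes were lower and 0.880% higher without overlap). *Mcm7*, which this population adds to the most abundant members, was at -0.31 ± 0.33. In PM1, 0 of 38 members tested were called (0.0535% of 5603 genes were), 0 were separated (0.178% of genes were lower and 0.678% higher without overlap) and *RnrL* was at -0.04 ± 0.21. PM2 was compared over 7 libraries, because unwounded replicate 4 had too few PM2 cells. There 0 of 40 members were called, against 0.0324% of 6173 genes, none had an unadjusted p under 0.05, and 0 were separated (0.761% of genes were lower and 1.96% higher without overlap). *CycB* was at 189, 124, 294 and 203 CPM in wounded PM2 cells of replicates 1 to 4, against 167, 99.9 and 319.6 CPM in unwounded PM2 cells of replicates 1 to 3 (0.03 ± 0.28), and *tum* at 137, 119, 139 and 157 CPM against 209, 104 and 153 CPM (-0.02 ± 0.24). In PM2 members ranged from -0.32 (*asp*) to +0.37 (*Klp67A*). No member had an unadjusted p under 0.05 in PM1 to PM12 or in PM1, and DESeq2 called 0 in PM1 to PM12, PM1 and PM2. Within 10X, 7 of 40 members did not overlap in PM1 to PM12, 7 in PM1 and 8 in PM2. Within inDrops the numbers were 8 in PM1 to PM12 and 4 in PM1. PM2 is left out there, since unwounded replicate 3 was the only unwounded library with enough PM2 cells. The shares of all genes within a technology are not given here, so these counts are not read as separation by wounding.

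In inDrops the labels give an unwounded and a wounded library of the same number as 1 multiplexed sample. A replicate block raised the genes called to 1.52% in all hemocytes, 0.950% in PM1 to PM12, 0.498% in PM2 and 0.643% in PM1, but the members called stayed at 0 in each. With the block, 2 members had an unadjusted p under 0.05 in all hemocytes.

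**Figure D3:**
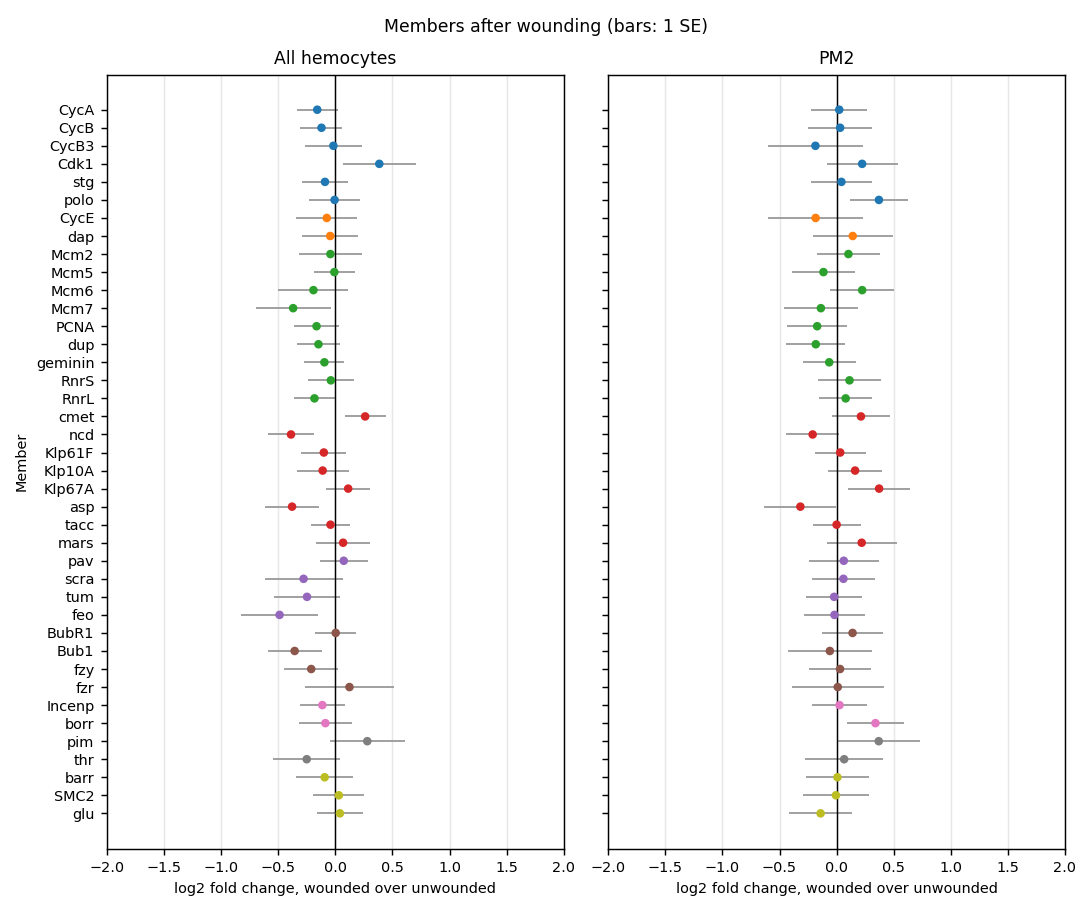
Log2 fold change of each member, wounded over unwounded, in all hemocytes (left) and in PM2 (right). Points are edgeR estimates coloured by role and bars are 1 SE. No member passed an adjusted p of 0.05, and the medians were -0.09 in all hemocytes and 0.03 in PM2.

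After wasp infestation the members were compared between *atilla* classes and between 48 hr and 24 hr in the Drop-seq tables. No uninfested Drop-seq library was analysed here. The surface protein *atilla* marks lamellocytes, and cells were sorted by their *atilla* UMIs into a class without any (atilla-0) and a class with 5 or more (atilla-high). The atilla-0 class is not free of lamellocyte clusters. At 24 hr it held 28 LM1 or LM2 cells of 130 in replicate 1, 188 of 1775 in replicate 2 and 107 of 3320 in replicate 3. Atilla-high cells were 60.5 to 71.5% of cells at 48 hr, against 5.59 to 21.6% at 24 hr, and lamellocyte markers in them summed to 29022 to 32647 CPM at 48 hr and 6820 to 14975 CPM at 24 hr, a sum that includes *atilla* itself.

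At 48 hr, atilla-high cells had lower levels of most cell division genes than the atilla-0 cells of the same library. Of 40 members, 36 were lower and 3 were higher in the edgeR quasi-likelihood test with the library as a block, where 61.6% of 7546 genes were called with 30.1% lower and 31.5% higher. *Bub1* was not called. The median log2 fold change was -1.90, against 0.01 over all genes. *Klp61F*, *Klp67A*, *asp*, *pim* and *thr* reached the filter's limit on low counts in all 3 libraries in atilla-0 cells alone. They were tested only because they were high there, so their values are a description. Of the 35 members that reached it in both classes, 31 were lower and 3 higher, with a median of -1.58. The 37 negative members did not overlap between the classes (52.3% of all genes were lower without overlap), nor did the 3 positive ones (18.2% higher).

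The 6 regulators of mitotic entry were all lower. *stg*, the phosphatase that switches on *Cdk1*, had 8.41, 6.90 and 17.5 CPM in atilla-high cells of replicates 1 to 3, against 257, 221 and 319 CPM in atilla-0 cells (-4.20 ± 0.17 (SE), adjusted p = 3.34e-10). *CycB* had 2.02, 1.53 and 3.00 CPM against 54.8, 51.6 and 60.1 CPM (-4.20 ± 0.19 (SE), adjusted p = 1.18e-09). In both genes the class with *atilla* was low in all 3 libraries. *polo* (-3.76), *CycB3* (-2.44), *Cdk1* (-1.93) and *CycA* (-1.58) followed. Their sum was 54.6, 46.5 and 63.5 CPM in atilla-high cells and 568, 512 and 623 CPM in atilla-0 cells.

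Genes of the later mitotic steps were lower too. The 4 cytokinesis genes were lower, with *pav* at 2.94, 2.65 and 5.20 CPM in atilla-high cells against 72.7, 48.3 and 69.0 CPM in atilla-0 cells (-3.67 ± 0.19 (SE), adjusted p = 3.42e-09). *scra*, *tum* and *feo* were at -3.76, -3.56 and -3.16. Of the spindle genes, *cmet* (-3.39) was lower, as were *ncd* (-3.39) and *mars* (-1.76). The values of *Klp67A* (-4.11), *asp* (-4.01) and *Klp61F* (-3.59), and those of the securin *pim* (-3.76) and of *thr* (-3.50), a partner of separase, rest on few UMIs in atilla-high cells (*asp* had 25, *pim* 48 and *thr* 12 in all). The passenger genes *Incenp* and *borr* were at -3.10 and -1.49, and the condensins *barr*, *SMC2* and *glu* at -1.55, -2.0 and -1.88.

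Replication genes were lower by less. *PCNA* had 64.1, 63.9 and 56.2 CPM in atilla-high cells against 146, 154 and 153 CPM in atilla-0 cells (-0.86 ± 0.09 (SE), adjusted p = 4.31e-06), and *geminin* and *RnrS* were at -1.56 and -0.86. All 9 genes of this group were called lower, with log2 fold changes from -1.56 to -0.86, and *CycE* and *dap* were at -1.17 and -1.21. The difference in size between the replication and the mitosis genes was not tested.

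The 3 higher genes were unlike the rest. *fzr*, the APC/C activator used when cells leave the cycle, had 201, 191 and 250.4 CPM in atilla-high cells against 40.3, 32.2 and 26.4 CPM in atilla-0 cells (3.12 ± 0.16 (SE), adjusted p = 3.85e-09). *tacc* had 376, 376 and 431 CPM against 129, 160.4 and 162 CPM (1.84 ± 0.10 (SE), adjusted p = 6.59e-09), and *Klp10A*, a kinesin that shortens microtubules and is also active outside mitosis, 138, 139 and 168 CPM against 74.0, 77.7 and 94.3 CPM (1.30 ± 0.10 (SE), adjusted p = 1.32e-07). All 3 were higher in atilla-high cells in 3 of 3 libraries.

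Atilla-high cells were deeper than atilla-0 cells, with medians of 8721 to 9124 UMIs against 3753 to 3927 UMIs at 48 hr. Within cells of 4000 to 12000 UMIs, 34 of 39 members tested were lower and 3 higher. With library totals in place of TMM factors the median of all genes was -0.43, and 37 of 40 members were lower, with *Bub1* now called. The shares of all genes called under these 2 settings are not given here, so the counts are not set against them. After thinning to 1000 UMIs, 0.265 to 0.764% of atilla-high cells had at least 2 UMIs of the 6 mitotic entry regulators, against 10.4 to 11.9% of atilla-0 cells (unthinned, 9.03 to 12.6% and 51.1 to 55.0%).

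**Figure D4:**
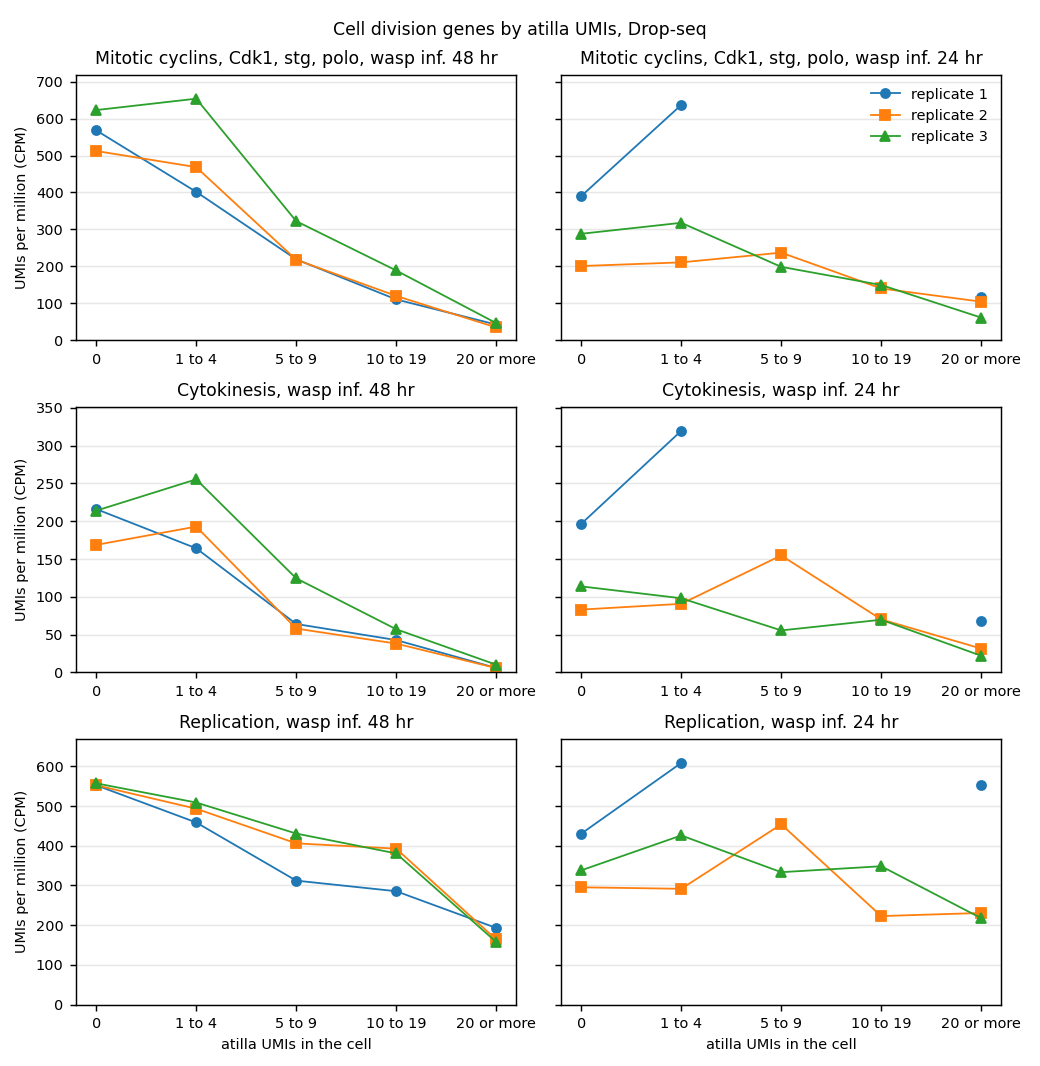
Summed CPM of the 6 mitotic entry regulators, the 4 cytokinesis genes and the 9 replication genes (rows) by *atilla* UMIs per cell, at 48 hr (left) and 24 hr (right). Each line is a Drop-seq library and classes with under 10 cells are not drawn. At 48 hr each sum is lowest with 20 or more UMIs in all 3 libraries.

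The levels were also followed over finer classes of *atilla* UMIs. At 48 hr the 6 mitotic entry regulators were at 512 to 623 CPM with 0 *atilla* UMIs, 402 to 654 CPM with 1 to 4, 218 to 322 CPM with 5 to 9, 111 to 189 CPM with 10 to 19 and 34.8 to 46.6 CPM with 20 or more. The ranges of the first 2 classes overlapped and those of the later classes did not. Cytokinesis genes were at 169 to 216, 164 to 255, 58.0 to 124, 38.1 to 57.1 and 5.79 to 10.2 CPM in the same order, and replication genes were at 552 to 557 CPM in the first class and 158 to 193 CPM in the last. At 24 hr the mitotic entry regulators were at 201 to 390.3 CPM with 0 *atilla* UMIs, 211 to 637 CPM with 1 to 4, 199 to 237 CPM with 5 to 9, 140.3 to 149.6 CPM with 10 to 19 and 61.4 to 116 CPM with 20 or more. There the class with 1 to 4 UMIs was above the class with 0 in each of the 3 libraries, and the classes with 5 to 9 and 10 to 19 had at least 10 cells in replicates 2 and 3 alone. Cells with 1 to 4 UMIs made up 12 to 16.4% of cells at 48 hr and gave 25.4 to 45.8% of the UMIs of the mitotic entry regulators.

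At 24 hr the same contrast was smaller. Of 38 members tested, 11 were lower and 3 higher (28.0% of 6249 genes were called, 12.8% lower and 15.2% higher). The median was -0.63, against -0.01 for all genes. Of the 31 members that reached the limit on low counts in both classes, 8 were lower and 3 higher. *Klp67A*, *mars* and *feo*, called lower, reached it in atilla-0 cells alone, so their values are a description. Of the lower ones, *stg* had 46.4, 11 and 23.9 CPM in atilla-high cells against 109, 43.4 and 87.7 CPM in atilla-0 cells (-1.67 ± 0.19 (SE), adjusted p = 0.000865), lower in each of 3 libraries. *Klp67A* (-1.65), *Incenp* (-1.46), *mars* (-1.21), *polo* (-1.10), *feo* (-1.02), *cmet* (-0.88), *CycA* (-0.77), *geminin* (-0.72), *SMC2* (-0.70) and *glu* (-0.59) were lower too. Of these, *geminin* and *Klp67A* did not overlap between the classes (8.90% of all genes were lower without overlap). The 3 higher genes were again *fzr* (3.06 ± 0.13 (SE), adjusted p = 1.20e-05), *Klp10A* (0.91) and *tacc* (0.67), each without overlap (15.3% of all genes were higher without overlap). *PCNA*, *RnrS* and *Cdk1* were at 0.38, 0.30 and -0.54 and were not called. Library choice mattered, since the members called numbered 16 without replicate 1, 6 without replicate 2 and 5 without replicate 3. For these fits the shares of all genes called are not given here, so the counts are not set against them.

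Whether the *atilla* effect differed between the times was tested in a joint fit of both. It was more negative at 48 hr than at 24 hr in 29 of 38 members and more positive in 1, where 20.4% of 6367 genes were called, 10.1% more negative and 10.3% more positive. The median difference was -1.38 on the log2 scale, against -0.02 for all genes. Of the 21 members that reached the limit on low counts in all 6 libraries of both classes, 16 were more negative and 1 more positive, with a median of -1.25. Another 15 reached it in atilla-0 cells alone, among them *CycB*, *scra*, *pav*, *Klp61F*, *tum*, *polo*, *ncd*, *cmet*, *Klp67A* and *feo*. These 15 were tested only because they were high there, so their values are a description. The limit was reached by *pim* in neither class, so its value is a description too. Of all 38, *CycB* had the widest difference (-3.53 ± 0.35 (SE)), with effects of -4.20 at 48 hr and -0.76 at 24 hr. *pim* (-3.44), *scra* (-3.18), *pav* (-3.00), *Klp61F* (-2.89), *tum* (-2.83), *polo* (-2.75), *stg* (-2.64), *ncd* (-2.62), *cmet* (-2.60), *Klp67A* (-2.54) and *feo* (-2.23) came next, and *Cdk1*, *glu* and *geminin* were at -1.46, -1.38 and -0.92. In *PCNA* the effects were -0.86 at 48 hr and 0.38 at 24 hr (-1.32 ± 0.27 (SE), adjusted p = 0.00721). *tacc* had a more positive effect at 48 hr (1.08 ± 0.18 (SE), adjusted p = 0.00299), whereas *fzr* (-0.03 ± 0.23) and *Klp10A* (0.31 ± 0.13) were not called. Cells of 4000 to 12000 UMIs gave 13 more negative and 1 more positive of 36 members. That setting also left out 24 hr replicate 1, which had under 10 such atilla-high cells, and called 628 of 6209 genes. Without that library and with no limit on depth, 26 were more negative and 1 more positive of 39 members, and 983 of 7057 genes were called.

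**Figure D5:**
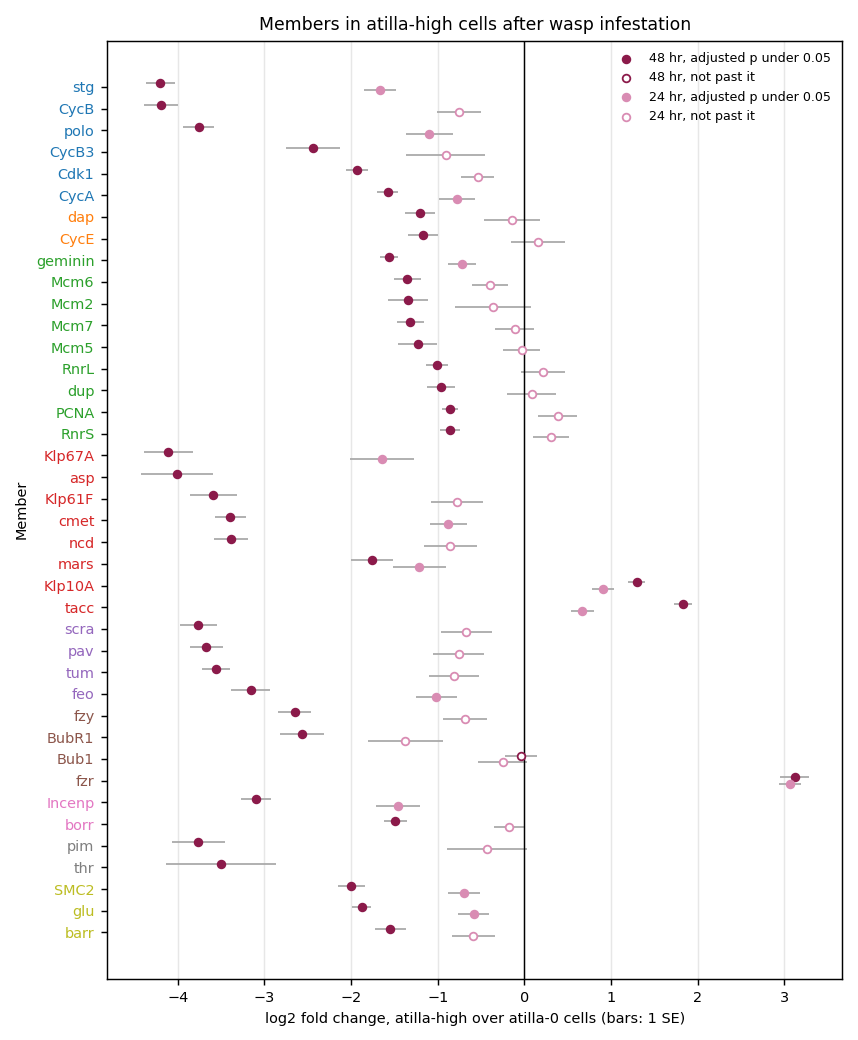
Log2 fold change of each member in atilla-high over atilla-0 cells at 48 hr (upper point of each pair) and 24 hr (lower point), with bars of 1 SE and gene names coloured by role. Filled points passed an adjusted p of 0.05. *CycB* and *stg* are lowest at 48 hr (both -4.20), and *fzr*, *tacc* and *Klp10A* are above 0 at both times.

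The classes were also compared between the times. In atilla-0 cells few members differed. Of 39 members tested, 4 were higher and 0 lower (10.1% of 6541 genes were called, 5.75% higher and 4.36% lower). *stg* had 257, 221 and 319 CPM at 48 hr, against 109, 43.4 and 87.7 CPM at 24 hr (1.48 ± 0.27 (SE), adjusted p = 0.0120). *CycB* (0.90 ± 0.20 (SE), adjusted p = 0.0251), *borr* (0.84) and *RnrS* (0.67) were the others, and 20 members lay higher at 48 hr without overlap (31.4% of all genes did) and 0 lower (5.78% did). Of the abundant members not called, *tacc* was at -0.63 ± 0.28, *PCNA* at 0.33 ± 0.14, *geminin* at 0.27 ± 0.17, *Cdk1* at 0.19 ± 0.21, *Klp10A* at 0.34 ± 0.15 and *glu* at -0.04 ± 0.22. The median was 0.33, against 0.05 for all genes. With library totals alone the median of all genes was 0.35 and 7 members were called, a count given without the share of all genes.

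The atilla-0 classes differed in cell type markers as well, which do not tell other cells from other expression in the same cells. At 48 hr lymph gland progenitor markers (Tep4, dome and shg) were at 116 to 179 CPM and at 24 hr at 753 to 1231 CPM, while crystal cell markers were at 1391 to 1617 CPM and at 8.59 to 800.5 CPM. In the 24 hr libraries of the merged table, plasmatocyte clusters other than PM2 themselves held the progenitor markers at 889 to 2025 CPM. Plasmatocyte markers were at 2161 to 3796 CPM at 48 hr and at 805 to 1633 CPM at 24 hr. The non-hemo cells also counted, since the mitotic entry regulators of 24 hr replicate 1 were at 390.3 CPM in atilla-0 cells and at 337 CPM without them. Their part in the result was not tested. Leaving out wasp inf. 24 hr replicate 1 gave 10 called members. Without 24 hr replicate 2 or 48 hr replicate 3 there were 2, and without 24 hr replicate 3, 48 hr replicate 1 or 48 hr replicate 2 there was 1. These counts are given without the shares of all genes called in the same fits.

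Atilla-high cells held lower levels at 48 hr than at 24 hr in 19 of 38 members tested and higher levels in 2 (23.1% of 7084 genes were called, 11.3% lower and 11.8% higher). *scra* had 1.85, 1.67 and 2.51 CPM at 48 hr, against 35.8, 12.4 and 9.11 CPM at 24 hr (-3.01 ± 0.44 (SE), adjusted p = 0.00422), and its groups did not overlap. *Klp61F*, *Klp67A* and *asp* reached the limit on low counts at 24 hr alone, so their values are a description. Of the 34 members that reached it at both times, 16 were lower and 2 higher. Without overlap, 23 members were lower and 3 higher (22.3% and 21.6% of all genes were). *asp* (-2.95), *polo* (-2.85), *CycB* (-2.75), *cmet* (-2.73), *Klp61F* (-2.67), *pav* (-2.60), *tum* (-2.41), *feo* (-2.26), *ncd* (-2.25), *Incenp* (-2.07) and *Klp67A* (-1.93) were the next lowest. *Klp10A* (0.63) and *fzr* (0.63) were higher. Of the abundant members, *glu* (-1.5), *Cdk1* (-1.30), *PCNA* (-1.10) and *geminin* (-0.68) were lower, and *RnrS* (-0.62 ± 0.23) and *tacc* (0.49 ± 0.19) were not called. Members called numbered 10 without 48 hr replicate 1, 9 without 48 hr replicate 2 and 14 without 48 hr replicate 3. In these fits, and without 24 hr replicate 2, 0 were called higher. Shares of all genes called in them are not given here, so the counts are not set against them.

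In sums of all cells, 23 members were lower and 2 higher at 48 hr (35.9% of 7998 genes were called, 15.8% lower and 20.1% higher), and 22 were lower and 3 higher without overlap (21.5% and 26.5% of all genes were). *polo* had 15.5, 10.8 and 17.3 CPM at 48 hr, against 68.1, 41.1 and 37.6 CPM at 24 hr (-1.73 ± 0.20 (SE), adjusted p = 0.00129), and *fzr* 163, 164 and 209.5 CPM against 54.3, 28.1 and 39.7 CPM (2.15 ± 0.18 (SE), adjusted p = 0.000515). *Incenp* (-1.68), *cmet* (-1.64), *scra* (-1.42), *mars* (-1.40), *Klp61F* (-1.29), *fzy* (-1.27), *SMC2* (-1.18), *glu* (-1.17), *ncd* (-1.16) and *tum* (-1.15) were lower, as were *Cdk1* (-0.93), *geminin* (-0.72) and *PCNA* (-0.53), and *Klp10A* (1.03) was higher. *stg* (-0.26 ± 0.27) and *tacc* (0.70 ± 0.26) were not called. Without 48 hr replicate 2, 14 members were called, a count given without the share of all genes. The share of atilla-high cells, given above, moved with these sums, and its part in them was not tested.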

How the data were processed

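UMI counts per gene and cell were deposited by the authors as whole numbers without normalization. Cell Ranger made the 10X counts, bcbio-nextgen with RapMap and umis the inDrops counts (both with the FlyBase Release 6 annotation), and Drop-seq tools with STAR the Drop-seq counts from an older annotation. Clusters of the merged table are the authors' (Seurat and Harmony). Drop-seq barcodes of the 24 hr and 48 hr tables were kept at 500 or more UMIs, 200 or more genes and at most 30% mitochondrial UMIs. No doublet caller was run.

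Counts were summed per library and population of at least 10 cells and given as CPM. They were tested with edgeR 4.0.16 in R 4.3.3 (quasi-likelihood test, TMM, filterByExpr, Benjamini-Hochberg over all genes tested, threshold 0.05), with technology as a covariate for wounding and the library as a block for the *atilla* classes. In each comparison the text names every called member, or the 12 with the largest change, and the 8 with the most UMIs, and up to 3 called genes a direction of the other 117 cell division genes. The alternatives were DESeq2 1.42.0, its size factors, library totals, no filter on low counts, stricter filters on cells and *atilla*, limits on cell depth, leaving out each library and the replicate block. The members and lists were chosen with earlier results of these data known. Same-numbered wounded and unwounded libraries deviated together (r = 0.82 in 10X and 0.44 in inDrops, where 2 libraries a condition fix equal values), and the labels give them as 1 multiplexed sample in inDrops. At 48 hr and 24 hr, r was -0.03, -0.09 and -0.08, so that numbers did not pair. Barcodes of the 48 hr table were assigned to replicates by their suffix, as in the 24 hr table. All 40 members matched the Ensembl annotation of the BDGP6 assembly, which gave the coordinates. UMI counts of 1 library carry counting error, which the spread over libraries includes.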

Additional observations from a re-analysis of the deposited data

Results flagged for a closer look

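Single libraries stood apart from the rest of their group of 4 in 5 values, by the gap to the nearest library over the range (Dixon's 95% limit). The summed mitosis genes of all hemocytes were at 2715 CPM in unwounded replicate 4. *RnrS* was at 206 CPM in PM2 of wounded replicate 1 and at 96.4 CPM in PM1 of unwounded replicate 4. *geminin* was at 111 CPM in PM1 of wounded replicate 2, and *RnrL* at 65.8 CPM in PM1 of wounded replicate 3. Chance alone sets apart about 1 in 20 such groups.

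The atilla-high effect differed between 48 hr and 24 hr, by the interaction term of the edgeR quasi-likelihood fit, in 30 of 38 members, where 20.4% of 6367 genes were called. Of the 21 members that reached the limit on low counts in both classes, 16 were more negative and 1 more positive. Members that reached it in atilla-0 cells alone are a description. Among them are *CycB*, *scra*, *pav*, *Klp61F*, *tum*, *polo*, *ncd*, *cmet*, *Klp67A* and *feo*. The value of *pim*, which reached it in neither class, is a description too. Values follow for the 17 of the 30 that were among the 12 with the largest change or the 8 with the most UMIs. On the log2 scale, 48 hr minus 24 hr, the difference was -3.53 for *CycB*, -3.44 for *pim*, -3.18 for *scra*, -3.00 for *pav*, -2.89 for *Klp61F* and -2.83 for *tum*. It was -2.75 for *polo*, -2.64 for *stg*, -2.62 for *ncd*, -2.60 for *cmet*, -2.54 for *Klp67A* and -2.23 for *feo*. It was -1.46 for *Cdk1*, -1.38 for *glu*, -1.32 for *PCNA* and -0.92 for *geminin*, and 1.08 for *tacc*.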

How the results depend on the processing

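Over 10 comparisons, 1690 values of named members were recomputed under other settings. Of these 1563 kept their side of the threshold, 119 lost it, 8 gained it and 0 changed direction. The members called after wounding stayed at 0 under each setting. Leaving out single libraries gave 14 to 26 members called for 48 hr against 24 hr in all cells, 1 to 10 in atilla-0 cells, 9 to 22 in atilla-high cells, 39 to 39 for atilla-high against atilla-0 cells at 48 hr, 5 to 16 at 24 hr and 25 to 34 for the difference between the times. Library totals in place of TMM, an alternative chosen after seeing the data, gave 7 in atilla-0 cells. At 24 hr, a threshold of 10 *atilla* UMIs gave 24 and no filter on low counts 23. Cells of 4000 to 12000 UMIs, which also left out 24 hr replicate 1, gave 14 for the difference. The cause was not tested. Shares of all genes called under these settings are not given in this section, so the counts do not tell whether members moved apart from other genes.

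Without the replicate block of libraries, the *atilla* classes gave 39 members at 48 hr, 2 at 24 hr and 16 for the difference, the last of these chosen after seeing the data. With a replicate block, 48 hr against 24 hr gave 22 in all cells, 3 in atilla-0 cells and 17 in atilla-high cells. The libraries of the 2 times share only a number, however. These counts, too, are given without the shares of all genes called.

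The PM2 ratio of the mitosis genes was 1.89 as reported, 2.01 with cells thinned to 1000 UMIs and 1.89 in libraries with at least 30 PM2 cells. For the replication genes it was 1.41 as reported and 1.36 with thinned cells. After thinning they were higher in PM2 in 9 of 10 libraries, with a lowest Drop-seq ratio of 0.582. The wounded and unwounded groups have 2 libraries a technology, the 24 hr atilla-high class has 44 cells in replicate 1, and *CycB3*, *pim* and *thr* have 90, 48 and 12 UMIs in atilla-high cells at 48 hr, which limits their values.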

Other observations

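Of 117 other cell division genes, grouped by process, 0 were called after wounding by edgeR in all hemocytes, PM1 to PM12, PM2 or PM1, where 3, 4, 3 and 4 had an unadjusted p under 0.05. At 48 hr, 77 of 116 tested were lower and 13 higher in atilla-high than in atilla-0 cells, with a median of -0.98, where 30.1% of all genes tested were lower and 31.5% higher. Of 34 replication genes 26 were lower, of 21 spindle, centrosome and cytokinesis genes 15 were lower and 6 higher, and of 23 chromosome and kinetochore genes 17 were lower. The Cdk cofactor *Cks30A* was at -4.60 ± 0.24 (SE), adjusted p = 3.06e-09, the mitotic kinase *gwl* at -3.92 and *mud*, which orients the spindle, at -3.58. Whether each of the 117 genes reached the limit on low counts in both groups compared was not examined. Their calls here and below may thus rest on the group where a gene was high. The centrosome scaffold *cnn* was higher (2.26 ± 0.12 (SE), adjusted p = 3.04e-09), as were the septin *Sep2* (1.67) and the microtubule protein *Map205* (1.47).

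At 24 hr, 14 of 100 of these genes were lower and 5 higher, where 12.8% of all genes were lower and 15.2% higher, with *Klp3A* (-1.22), *Cks30A* (-1.18) and the separase gene *Sse* (-1.05) lowest and *cnn* (1.91), *Sep2* (0.77) and *cal1* (0.77) highest. The effect was more negative at 48 hr in 43 of 102 and more positive in 3 (10.1% and 10.3% of all genes were), with *Cks30A* (-3.52), *mud* (-2.85) and the centromeric histone *cid* (-2.82) at 1 end and *Sep2* (0.81), *Map205* (0.67) and *CycG* (0.45) at the other. Between 48 hr and 24 hr, *Cks30A* (1.00) and the checkpoint gene *mad2* (0.65) were higher in atilla-0 cells, 2 of 112 tested, where 5.75% of all genes were higher. In atilla-high cells 26 of 111 were lower, with *sti* (-3.15), a kinase of cytokinesis, at the low end, and 7 were higher (11.3% of all genes were lower and 11.8% higher). In all cells 31 of 116 were lower and 8 higher (15.8% of all genes were lower and 20.1% higher).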
